A study of Mus musculus with 3 samples.

Results

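Plasmacytoid dendritic cells were picked out of 3 mouse liver libraries by their transcripts. A barcode is the tag that marks 1 droplet, and a UMI (unique molecular identifier) marks 1 captured RNA molecule. Barcodes with at most 40% of UMIs from mitochondrial (mt-) genes were kept. Of these, a barcode was counted as a plasmacytoid dendritic cell if it held at least 1 UMI of Siglech, at least 2 UMIs summed over Siglech, Ccr9, Klk1, Cox6a2, Tcf4 and Irf8, and 0 UMIs of the Kupffer cell genes Clec4f and Cd5l, the B-cell gene Cd79a and the T-cell gene Cd3e. This rule found 279 barcodes among 29572 kept barcodes, from 30000 in the files. The library labelled wt/wt held 49 of them, the wt/flox library 77 and the flox/flox library 153.

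Plasmacytoid dendritic cells are bone marrow-derived immune cells that circulate in the blood and enter tissues such as the liver. They sense viral and self nucleic acids in endosomes through the receptors TLR7 and TLR9, and are known for their capacity to release large amounts of type I interferon. Their identity depends on the transcription factor TCF4 (also called E2-2), which is opposed by ID2, and they share several genes with B-lineage cells. Interferon released by any cell acts through the receptor IFNAR on neighbouring cells and induces interferon-stimulated genes there.

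All mice were male C57BL/6 animals of 9 weeks without a functional Ifih1 gene, which encodes MDA5 (a cytosolic sensor of double-stranded RNA), and with Alb-Cre, a Cre recombinase driven by the albumin promoter and therefore active in hepatocytes. The groups differed in Adar1 (gene symbol Adar, an enzyme that edits adenosines in double-stranded RNA): both alleles were intact in wt/wt, 1 was loxP-flanked in wt/flox and both were in flox/flox. Each genotype had 1 library, so that differences between genotypes have no replicate check. They are given without a test, and their 95% intervals cover counting error alone. The suspension came from collagenase-perfused liver after a low-speed spin, red-cell lysis and a Percoll gradient, steps that favour hepatocytes, so every share below is a share of what remained after them. Plasmacytoid dendritic cells are not expected to carry the Alb-Cre deletion, since Cre is driven from a hepatocyte promoter.

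The wt/wt library held 9744380 UMIs, wt/flox held 10067929 and flox/flox held 10756790. Adar, the targeted gene, stood at 12.2, 20.4 and 41.0 CPM (UMIs of a gene per 1000000 UMIs of the same barcodes) in the 3 libraries in all other kept barcodes. Its level was thus highest where the label gives both alleles as loxP-flanked, which goes against that label. The 3' tags cannot check the deletion if they lie outside the deleted part, and which exons are flanked is not given in the sources used here. Every direction drawn from that library below rests on its label. In plasmacytoid dendritic cells Adar gave 4, 4 and 9 UMIs, or 63.6, 42.9 and 44.0 CPM. Ifih1 was at 0 UMIs in them in each library. Pairs of libraries shared 20, 32 and 27 barcode sequences, and 0 of these were a plasmacytoid dendritic cell in both. No doublet caller was run, so droplets that hold more than 1 cell remain in all classes.

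The genes of the rule chose the cells and are described without a test. Siglech, a sialic acid-binding surface receptor, stood at 1680, 2120 and 2260 CPM in wt/wt, then wt/flox, then flox/flox, the order used throughout. Among all other kept barcodes 0.058% held a Siglech UMI. Ccr9, a chemokine receptor for gut homing, was found in 57.3% of the cells (51.3 to 63.2, exact binomial interval), and in 44.9%, 55.8% and 62.1% of them by library, against 0.335% of all other barcodes. Klk1, a tissue kallikrein, was found in 31.5% against 0.0649%, and Cox6a2, a muscle-type subunit of cytochrome c oxidase, in 44.8% against 0.0751%. The transcription factors Tcf4 (81.4% against 5.32%) and Irf8 (89.2% against 1.92%) were the least restricted of the 6. The median depth was 1202 UMIs per barcode in the cells and 892 in all other barcodes.

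Most cells lay well inside the rule. Of the 279, 269 held 4 or more UMIs over the 6 genes, 7 held 3 and 3 held exactly 2. Just outside it, 6 barcodes had 1 Siglech UMI and none of the other genes, 42 had no Siglech but at least 1 UMI of Ccr9, Klk1 or Cox6a2 and at least 2 UMIs over the 5 genes other than Siglech, 11 failed only on the 4 excluded genes and 2 failed only on the mt- limit. Bst2, a marker that the rule did not use, stood at 1710 CPM in cells with 4 or more UMIs, 1160 with 3 and 770 with 2. It stood at 391 CPM in the 6 barcodes with Siglech alone and at 1270 CPM in the 42 without Siglech. So the barcodes without Siglech carried Bst2 at a level near that of the cells with 3 UMIs, and they count among all other barcodes in each comparison.

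The start of Siglech, the gene on which the rule turns, is shown because TCF4 binds E-box motifs. Siglech (ENSMUSG00000051504) lies on the plus strand of mm10 chromosome 7 from 55768178 to 55778925. The RefSeq promoter window on GRCm38.p6, chr7:55767934-55768233, plus strand, reaches from 250 bases before to 50 bases after the RefSeq start site. It holds 1 match to the E-box CAGGTG, on the minus strand, and none to CAGCTG. Capitals mark that match, which begins 20 bases before the start site.
Siglech: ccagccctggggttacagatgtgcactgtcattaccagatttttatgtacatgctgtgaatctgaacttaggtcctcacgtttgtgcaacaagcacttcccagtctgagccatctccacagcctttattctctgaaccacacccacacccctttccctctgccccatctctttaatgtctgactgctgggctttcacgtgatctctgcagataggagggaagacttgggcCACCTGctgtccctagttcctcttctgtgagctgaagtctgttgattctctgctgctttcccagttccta
CAGGTG on either strand was found in 11 of the 31 marker and rule genes with a promoter in the table (35.5%, from 41 genes listed) and in 22.6% of all 27025 genes. CAGCTG was found in 3 of those 31 (9.68%) against 18.3% of all genes. A match is a description of letters, not a site of binding.

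The share of kept barcodes that were plasmacytoid dendritic cells was highest in the library labelled flox/flox. In wt/wt it was 0.496% (0.367 to 0.655, exact Clopper-Pearson interval). The wt/flox share was 0.776% (0.613 to 0.969), and the flox/flox share was 1.57% (1.33 to 1.83). The 3 intervals meet only for wt/wt and wt/flox. The flox/flox share was 3.16 times that of wt/wt (2.27 to 4.45) and 2.02 times that of wt/flox (1.52 to 2.69), and the wt/flox share was 1.56 times that of wt/wt (1.08 to 2.29). Median depth was close in the 3 sets of cells, at 1226, 1141 and 1215 UMIs. With every barcode thinned to 600 UMIs the shares were 0.304%, 0.625% and 1.16%.

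Other immune cells, picked by rules of the same kind, did not all follow this order. B-rule barcodes made up 0.597%, 0.675% and 0.522% of the kept barcodes, and Kupffer-rule barcodes, the resident macrophages, 2.08%, 2.51% and 2.46%. T-rule barcodes made up 0.85%, 1.22% and 1.49%. Conventional dendritic rule barcodes, which needed an H2-Ab1 UMI beside dendritic genes, were 11, 23 and 35 in number, or 0.111%, 0.232% and 0.358%. Their flox/flox share was 3.22 times that of wt/wt (1.6 to 7.02). As a share of the barcodes that met any of the 5 immune rules, plasmacytoid dendritic cells were 49 of 408, 77 of 537 (14.3%) and 153 of 625 (24.5%). On this base the flox/flox share was 2.04 times that of wt/wt (1.47 to 2.87), and the wt/flox share was 1.19 times (0.824 to 1.74), an interval that includes no difference.

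**Figure D1:**
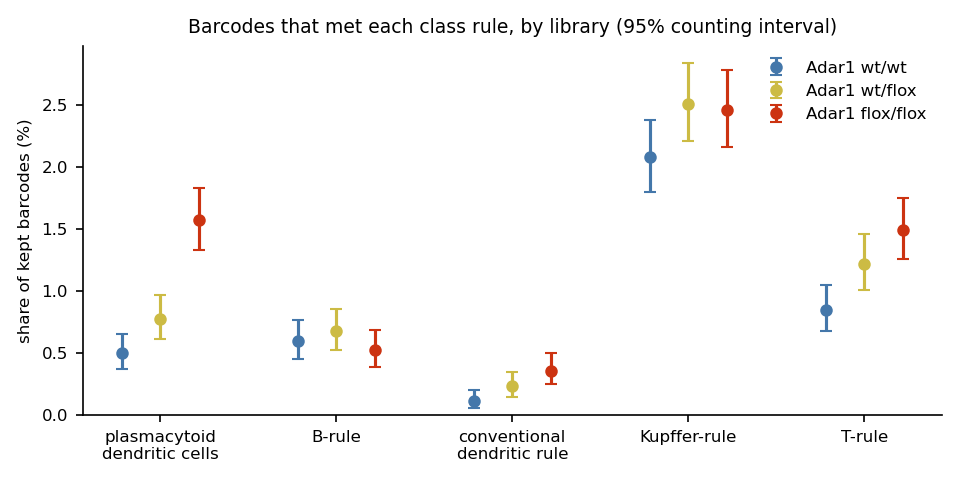
Share of kept barcodes (y axis, percent) that met each class rule (x axis) by library, with exact 95% counting intervals. Plasmacytoid dendritic cells go from 0.496% to 1.57%, conventional dendritic rule and T-rule barcodes follow the same order of libraries, and B-rule barcodes lie between 0.522% and 0.675%.

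To describe what set these cells apart beyond the rule, their UMIs were summed per library and compared with sums of other barcodes of the same library. The fit was edgeR's quasi-likelihood test with library as a block over 6 sums, with a call at an adjusted p under 0.05 (Benjamini-Hochberg). The libraries stand in as replicates of a difference within a library, although their genotypes differ, so the p-values measure the spread over these libraries only. Against all other kept barcodes, 2439 of 12226 genes tested were called (19.9%), 950 of them higher (7.77%) and 1489 lower (12.2%). Of 35 marker genes outside the rule, 34 were tested and 32 were higher, with a median log2 fold change of 4.88 against -0.27 over all genes tested. Those not called were Upb1 (-0.04 ± 0.19, SE) and Cadm1 (0.18 ± 0.45). Without the flox/flox library, 28 of 33 tested were higher.

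Some members of this list are shown with their levels, and other members had larger fold changes. Bst2 (ENSMUSG00000046718, mm10 chromosome 8, 71534255 to 71537456, minus strand) encodes the surface antigen PDCA-1, a protein that tethers budding virus. It stood at 1830, 1530 and 1700 CPM in the cells and at 196, 272 and 362 CPM in all other barcodes. Each library's cells lay above all other barcodes of every library, with a log2 difference of 2.21 ± 0.12 (SE; edgeR, adjusted p = 1.2e-76). Ly6d, a surface protein of B-cell and plasmacytoid progenitors, stood at 1050, 1100 and 845 CPM against 15.3 CPM over all other barcodes. The difference was 5.62 ± 0.17 (adjusted p = 9.2e-234). Runx2, a transcription factor used by plasmacytoid dendritic cells to leave the bone marrow, stood at 461, 311 and 376 CPM against 1.67, 2.42 and 2.51, a difference of 6.99 ± 0.30 (adjusted p = 3.5e-118).

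Further markers separated just as clearly. Plac8, a small cysteine-rich protein, stood at 1590, 1700 and 1880 CPM against 43.8, 81.9 and 92.3 CPM elsewhere. Tyrobp, the adaptor DAP12 through which Siglec-H signals, stood at 2100, 1960 and 1890 CPM against 56.8, 110 and 84.2 CPM. Bst2, Plac8 and Tyrobp varied by under 1.5-fold between libraries within the cells. Ly6c2, a surface antigen shared with monocytes, differed more, at 556, 847 and 1230 CPM. Its log2 ratio of flox/flox over wt/wt was 1.15 (0.63 to 1.70), beside 1.56 in all other barcodes.

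Counted per barcode, the 35 markers also held for nearly every cell. The cells had UMIs of a median of 9 of the 35 genes (range 1 to 19), and 278 of 279 had at least 3. Among all other barcodes the median was 1 gene and 7.62% had at least 3. That share was 34.5% in B-rule, 44.9% in conventional dendritic rule and 45.4% in Kupffer-rule barcodes, each of which shares part of the list. The 1 cell with fewer than 3 of them was in flox/flox.

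Against other immune classes most of the list remained above the level of the other class. Of 2242 genes tested against B-rule barcodes 9.72% were called, 148 higher (6.6%) and 70 lower (3.12%), and 20 of 22 tested markers were higher, with a median log2 fold change of 2.40. Against conventional dendritic rule barcodes 17.4% of 2198 genes were called, 172 higher (7.83%) and 210 lower (9.55%), and 20 of 23 markers were higher (median 2.90). Against Kupffer-rule barcodes 24.4% of 6688 genes were called, 661 higher (9.88%) and 970 lower (14.5%), with 28 of 32 markers higher and 3 lower (Cadm1, Cybb and Irf7). The median there was 5.29. Medians over all genes tested were -0.02, 0.06 and -0.01. Of the markers tested, 3, 3 and 8 were at 0 in the other class and passed the filter on low counts through the plasmacytoid dendritic cells alone. Markers with few UMIs in the other class could pass in the same way and are not in those numbers. Examples are Runx2 in conventional dendritic rule barcodes (0, 0 and 15.45 CPM) and Ly6d in Kupffer-rule barcodes (3.872, 0 and 0 CPM). So these counts and medians describe the tested markers, not the list. Without that filter 25, 26 and 29 of all 35 were higher. With markers at 0 in the other class set to the bound that 3 counts over that class give, the list medians were 2.38, 2.78 and 4.51. Under DESeq2 10, 11 and 25 markers were called higher, and without the flox/flox library 18 of 22, 12 of 18 and 21 of 27 were.

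The nearest class for some markers was the B-rule class. Ly6d was only 0.85 ± 0.19 higher than in B-rule barcodes (edgeR, adjusted p = 0.00016), which held it at 543 CPM over all libraries. Spib, a transcription factor of the ETS family used in B cells and plasmacytoid dendritic cells alike, stood at 111, 289 and 195 CPM and was 1.72 ± 0.44 higher (adjusted p = 0.0017). Runx2 gave 135 UMIs in the cells and 0 in B-rule and Kupffer-rule barcodes. Lair1, an inhibitory collagen receptor, gave 166 UMIs in the cells and 0 in conventional dendritic rule barcodes.

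**Figure D2:**
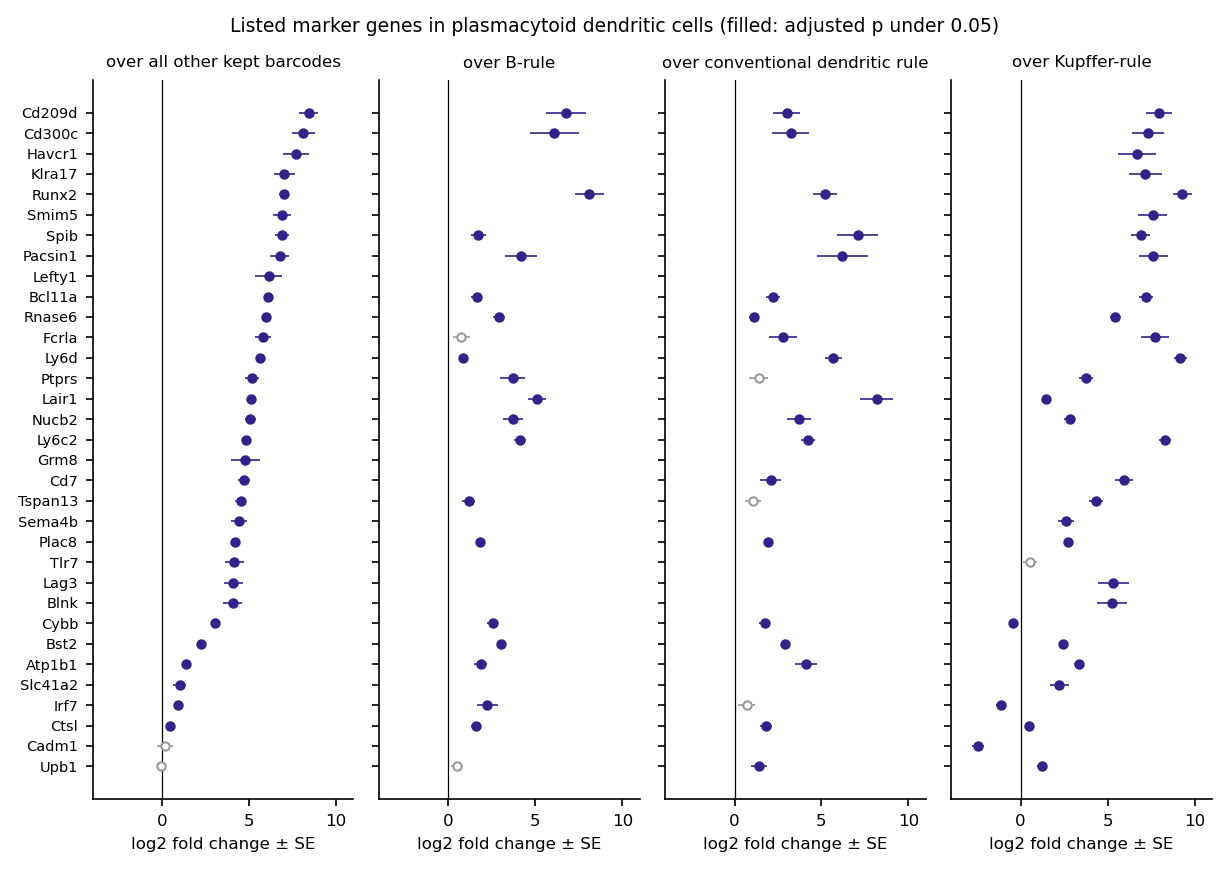
Fitted log2 fold change (x axis, ± SE) of listed marker genes (y axis) in plasmacytoid dendritic cells over all other kept barcodes and over 3 immune classes; filled points have an edgeR adjusted p under 0.05, and a missing point means the gene was not tested. Against all other barcodes every gene drawn but Upb1 and Cadm1 is filled and to the right of 0; values of genes at 0 in the other class depend on the fit's prior count.

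The genes with the largest fold over all other barcodes were not confined to the marker list. Pgam2 and Atp2a1, muscle-type genes of glycolysis and calcium transport, stood at 95.4, 32.1 and 39.1 CPM and at 111, 64.3 and 58.6 CPM in the cells. They gave 17 and 25 UMIs in the cells, and stood at or under 0.105 CPM in the other barcodes of each library. Atp2a1 was 689-fold higher (210 to 3570, counting interval). Cd209d, a C-type lectin, was 487-fold higher, at 159, 150 and 142 CPM. Lrp8, a lipoprotein receptor, was 239-fold higher, at 111, 129 and 161 CPM. Havcr1 (TIM-1), Cd300c, Hs3st1, Paqr5, Spns3, Olfr164 and the noncoding Eldr completed the 12 leading genes. Klk1b27 also belongs to them, but it is a near copy of the rule gene Klk1, and reads shared between the copies make its value uncertain.

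The genes with the largest deficit were those of other cell types. The 4 haemoglobin genes gave 0 UMIs in the cells, while Hbb-bs stood at 1012, 4950 and 123 CPM in all other barcodes. The antibody genes Igha and Jchain were also at 0 in the cells. In B-rule barcodes Igha stood at 1200, 5310 and 8270 CPM and Jchain at 198, 2810 and 4010 CPM. The levels of these blood and antibody genes differed widely between libraries. The complement gene C1qc and Adgre1, which encodes the macrophage antigen F4/80, were at 0 in the cells, beside 1410, 1670 and 1620 CPM and 399, 504 and 353 CPM in Kupffer-rule barcodes. Ccl22, a chemokine of mature conventional dendritic cells, was at 0 beside 840, 306 and 124 CPM in conventional dendritic rule barcodes. Each of these directions was seen in all 3 libraries.

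Transcription factors that sort dendritic cell lineages followed a split pattern. Of 21 listed factors outside the rule that were tested against all other barcodes, 10 were higher and 1, Id2, was lower. Over all genes tested 7.77% were higher and 12.2% lower. Bcl11a, a factor of B cells and plasmacytoid dendritic cells, stood at 286, 439 and 488 CPM and was 6.11 ± 0.25 higher (adjusted p = 7.9e-128). Against conventional dendritic rule barcodes 5 of 12 were higher (Bcl11a, Ikzf1, Runx2, Spib and Zeb2) and 4 lower (Cbfa2t3, Id2, Id3 and Spi1). Over all genes tested there 7.83% were higher and 9.55% lower. The 5 became 2 under DESeq2, 3 of 12 without the replicate block, 3 of 13 without the wt/wt library and 3 of 11 without the flox/flox library. Id2, the antagonist of TCF4, stood at 31.8, 236 and 68.4 CPM and was -3.38 ± 0.27 against conventional dendritic rule barcodes (edgeR, adjusted p = 1.1e-32). Batf3, a factor of cross-presenting dendritic cells that the comparator's rule uses, gave 2 UMIs in the 279 cells.

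Class II antigen presentation genes placed the cells below conventional dendritic cells. Of 12 class II genes tested against all other barcodes, 8 were higher and none lower, beside 7.77% and 12.2% of all genes tested. H2-Ab1, a class II chain, stood at 731, 697 and 738 CPM, against 86.6 to 143 CPM elsewhere. Against conventional dendritic rule barcodes 6 of 7 class II genes outside that rule were lower, with a list median of -2.09 beside 0.06 over all genes tested. H2-Aa stood at 620, 836 and 948 CPM and was -2.38 ± 0.15 (edgeR, adjusted p = 2.1e-55), and H2-Eb1 was -3.22 ± 0.16. Cd74, the invariant chain, was -2.09 ± 0.13, and Ciita, which switches class II genes on, -3.40 ± 0.75. The comparator rule requires an H2-Ab1 UMI and so favours barcodes rich in class II transcripts. Under DESeq2 3 of 7 were called lower, and without the flox/flox library 3 of 6 were. Against B-rule barcodes 1 of 8 class II genes was higher and 3 were lower, H2-Eb1 among them, beside 6.6% and 3.12% of all genes tested. Against Kupffer-rule barcodes 0 of 8 were higher and 3 lower, beside 9.88% and 14.5%. H2-Aa, H2-Ab1 and Cd74 were not called against B-rule barcodes, at 0.26 ± 0.19, 0.13 ± 0.19 and -0.27 ± 0.13 (edgeR, adjusted p = 0.53, 0.82 and 0.23). This does not show that they are equal. The costimulatory genes Cd80, Cd86 and Cd40 gave 0, 1 and 1 UMIs in all 279 cells.

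**Figure D3:**
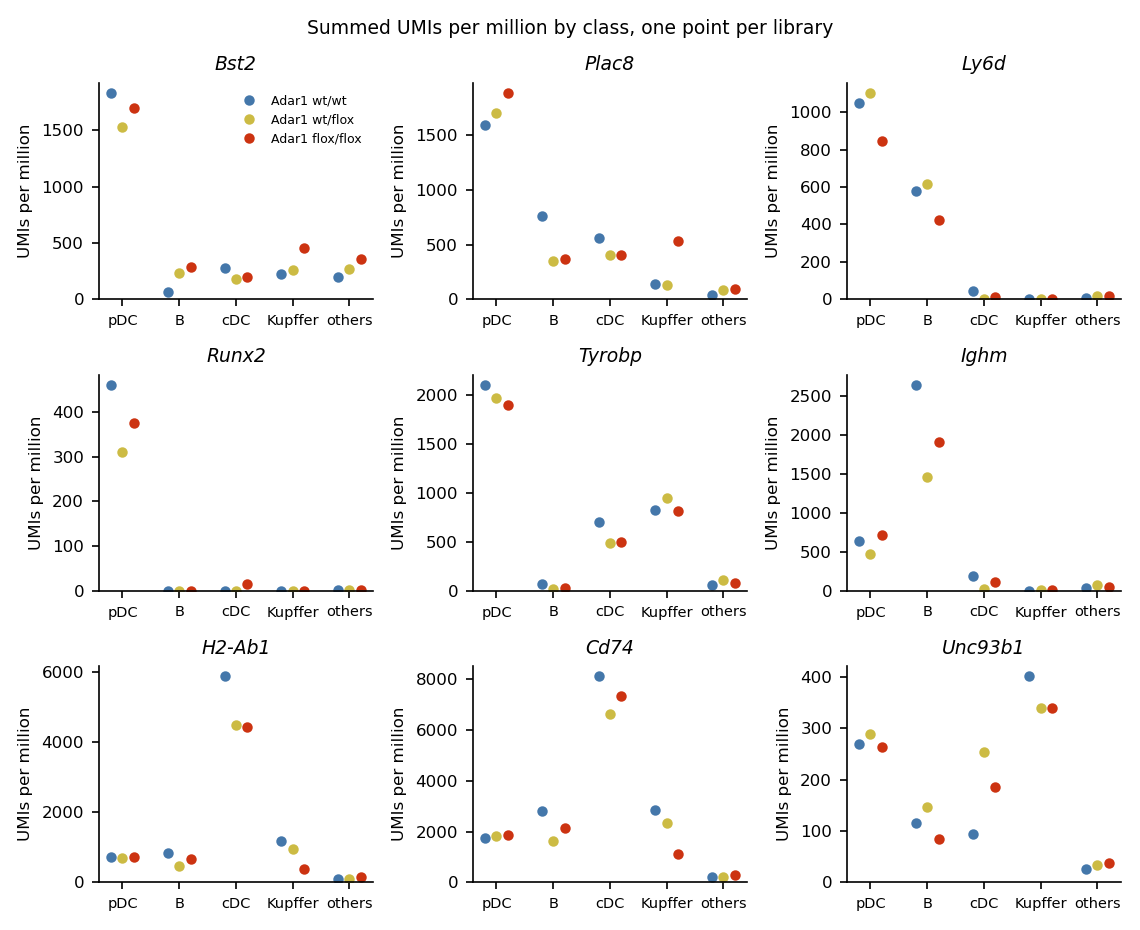
Level of 9 genes (y axis, CPM of the class sum) in plasmacytoid dendritic cells (pDC), B-rule, conventional dendritic rule (cDC), Kupffer-rule and all other kept barcodes (x axis), with 1 point per library. Bst2, Plac8 and Runx2 are highest in plasmacytoid dendritic cells in each library, H2-Ab1 and Cd74 in conventional dendritic rule barcodes, and Ighm in B-rule barcodes.

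Class I presentation genes were higher than in all other barcodes for 11 of 14 listed, beside 7.77% of all genes tested. Their median log2 fold change was 1.37. Against conventional dendritic rule barcodes 0 of 10 were called (median -0.19), beside 17.4% of all genes tested. Against B-rule barcodes 2 of 9 were higher and 0 lower, beside 6.6% and 3.12%. Against Kupffer-rule barcodes 3 of 13 were higher and 2 lower, beside 9.88% and 14.5%. Psmb8, a subunit of the immunoproteasome, stood at 238, 225 and 386 CPM. It was 1.42 ± 0.19 above all other barcodes (edgeR, adjusted p = 4.6e-12). Against conventional dendritic rule barcodes Psmb8 was -0.40 ± 0.30 and not called (edgeR, adjusted p = 0.42).

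The machinery of endosomal RNA sensing was present at low counts. Of 15 listed sensing genes tested against all other barcodes, 7 were higher and 1, Chuk, was lower. Over all genes tested 7.77% were higher and 12.2% lower. Without the flox/flox library 4 of 14 sensing genes were higher. Against Kupffer-rule barcodes 2 of 13 were higher and 1 lower (median -0.32), beside 9.88% and 14.5% of all genes tested. Against conventional dendritic rule barcodes 0 of 5 were called (median -0.16), beside 17.4%. Against B-rule barcodes 2 of 5 were higher and 0 lower, beside 6.6% and 3.12%. Unc93b1, the chaperone that carries TLR7 and TLR9 to endosomes, stood at 270, 289 and 264 CPM against 27.1, 33.8 and 38.4 elsewhere. Its difference was 2.62 ± 0.23 (edgeR, adjusted p = 4.7e-29). Tlr7, the receptor for single-stranded RNA, stood at 31.8, 42.9 and 97.7 CPM from 26 UMIs in all and was 4.15 ± 0.54 higher (adjusted p = 6.4e-13). Slc15a4, an endosomal transporter needed for that signal, was 1.97 ± 0.37 higher. Tlr9 gave 2 UMIs in all cells, which is too few to test. Irf7, the factor that drives type I interferon genes, stood at 111, 96.4 and 205 CPM. It was 0.92 ± 0.26 above all other barcodes (adjusted p = 0.0035) and -1.16 ± 0.24 against Kupffer-rule barcodes (adjusted p = 2.2e-05).

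Interferon genes themselves were not detected. Over 19 type I and type III interferon genes the cells gave 0 UMIs in each library. A count of 0 allows up to 47.7, 32.1 and 14.7 CPM for their sum, by 3 counts of each library's total. In all other barcodes 3 UMIs of Ifnk, all in wt/flox, were the only interferon UMIs. Among other effector genes, the cells gave 0 UMIs of the cytokines Il6, Il12a, Il12b and Il10. Of 10 effector genes tested, Ccl4 and Tgfb1 were higher than in all other barcodes and Ccl5 was lower. Over all genes tested 7.77% were higher and 12.2% lower. Ccl4, a chemokine for T cells and NK cells, rested on 10 UMIs, at 31.8, 0 and 39.1 CPM.

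Most homing receptors were higher in the cells than in all other barcodes. Of 17 listed genes outside the rule, 13 were higher than in all other barcodes and none lower, with a median log2 fold change of 2.55. Over all genes tested 7.77% were higher and 12.2% lower. Against conventional dendritic rule barcodes 2 of 8 were higher and 1 lower (median 0.31), beside 7.83% and 9.55%. Against B-rule barcodes 6 of 8 were higher and 0 lower, beside 6.6% and 3.12%. Against Kupffer-rule barcodes 6 of 11 were higher and 3 lower, beside 9.88% and 14.5%. Selplg, the selectin ligand PSGL-1, stood at 302, 343 and 317 CPM and was 3.71 ± 0.23 higher (edgeR, adjusted p = 2.1e-55). Ccr2, which directs cells out of the bone marrow, was 2.03 ± 0.30 above all other barcodes but -1.80 ± 0.33 against conventional dendritic rule barcodes (adjusted p = 1.6e-06). Ccr7, the lymph node homing receptor, and Itgae, the integrin CD103, were at 0 UMIs.

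The cells also carried some transcripts of the lymphoid lineage. Of 15 listed genes tested against all other barcodes, 8 were higher and 3 lower, beside 7.77% and 12.2% of all genes tested. Against B-rule barcodes 0 of 8 were higher and 6 lower, beside 6.6% and 3.12%. Against conventional dendritic rule barcodes 3 of 4 were higher and 0 lower. Ighm, the heavy chain of IgM, stood at 636, 472 and 718 CPM against 39.8, 70.1 and 55.1 elsewhere. It was 3.11 ± 0.17 above all other barcodes (adjusted p = 8.2e-76) and -1.69 ± 0.15 against B-rule barcodes. Ighm UMIs were found in 55.9% of the cells, 71.2% of B-rule barcodes and 2.46% of all other barcodes. Iglc3, a lambda light chain constant gene, stood at 302, 418 and 493 CPM. It was 4.88 ± 0.23 above all other barcodes, while its difference from B-rule barcodes, -0.55 ± 0.22, was not called (edgeR, adjusted p = 0.095). Igkc, the kappa light chain, behaved otherwise and was called lower than in all other barcodes. It stood at 207, 171 and 244 CPM in the cells and 5950, 16700 and 22600 CPM in B-rule barcodes, a difference of -6.35 ± 0.16. The light chain constant genes of the lambda family are near copies, so counts may be split between them.

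Other genes of lymphocyte development were sparse. Dntt, the DNA polymerase TdT that is active while antigen receptor genes are assembled, gave 32 UMIs at 15.9, 96.4 and 107 CPM. It was found in 11.1% of the cells and 0.355% of all other barcodes, and was 4.24 ± 0.49 higher (adjusted p = 1.9e-16). Rag1, Rag2, Ptcra and Jchain were at 0. Il7r, the interleukin-7 receptor, stood at 159, 214 and 156 CPM and was 2.75 ± 0.29 above all other barcodes. Flt3, the receptor whose ligand sustains dendritic cells, was 4.58 ± 0.63 above all other barcodes from 20 UMIs. Ifnar1, a chain of the type I interferon receptor, stood at 127, 129 and 156 CPM and was 2.25 ± 0.29 higher (edgeR, adjusted p = 6.0e-13). Csf1r, the macrophage growth factor receptor, stood at 0, 10.7 and 24.4 CPM and was -2.10 ± 0.49.

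Secretory pathway and respiration genes were listed as well. Of 32 secretory genes 4 were higher than in all other barcodes (Mzb1, Sec11c, Sec61b and Xbp1) and 4 lower. These counts were near the shares over all genes tested, 7.77% and 12.2%. Against B-rule barcodes 0 of 25 were higher and 3 lower, Mzb1 among them, beside 6.6% and 3.12%. Against conventional dendritic rule barcodes 3 of 25 were higher and 0 lower, beside 7.83% and 9.55%. Against Kupffer-rule barcodes 10 of 31 were higher and 3 lower, beside 9.88% and 14.5%. Xbp1, a driver of secretory capacity, stood at 381, 429 and 488 CPM and was 0.52 ± 0.15 above all other barcodes (adjusted p = 0.005). Of 9 cytochrome c oxidase isoform genes besides Cox6a2, 6 were lower than in all other barcodes and 0 higher, beside 12.2% and 7.77% of all genes tested. Their median log2 fold change was -0.4 beside -0.27 over all genes tested. Against B-rule and conventional dendritic rule barcodes 0 of 7 were called, and against Kupffer-rule barcodes 4 of 7 were higher and 0 lower. Grn, which encodes progranulin, stood at 540, 632 and 757 CPM. It was 1.68 ± 0.15 above all other barcodes (adjusted p = 2.6e-28) and -1.34 ± 0.12 against Kupffer-rule barcodes.

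Marker lists of other cell types were summed in the cells as well. The 12 hepatocyte markers summed to 46300, 44800 and 35800 CPM against 79200, 72900 and 68300 CPM in all other barcodes, ratios of 0.584, 0.615 and 0.524. All 12 were lower than in all other barcodes, while 10 of 12 were higher than in conventional dendritic rule barcodes. Their part in the results was not tested. The 10 Kupffer cell markers gave 1, 1 and 12 UMIs. Of these, Clec4f and Cd5l were held at 0 by the rule, while Timd4, Marco, C1qc and Adgre1 are not in the rule and were also at 0. The 11 T-cell markers summed to 95.4, 150 and 156 CPM against 90.7, 136 and 150 CPM in all other barcodes. Of 10 tested, 2 were higher than in all other barcodes and 4 lower, beside 7.77% and 12.2% of all genes tested. Cd3e was held at 0 by the rule, and Cd3d, Cd3g, Trbc1, Trbc2 and Cd2 were also at 0. The 10 sinusoidal endothelial markers gave 37, 6 and 24 UMIs, and 3 cells held 31 of the 37 in wt/wt. The 7 neutrophil markers gave 0, 61 and 18 UMIs, of which 35 came from 1 cell of wt/flox. The 9 monocyte markers summed to 652, 1310 and 1700 CPM against 157, 412 and 376 CPM in all other barcodes, which includes Ly6c2 and Ccr2. The monocyte gene Lyz2 gave 0, 19 and 46 UMIs, and F13a1 was at 0. The 11 conventional dendritic markers summed to 413, 386 and 459 CPM against 29.4, 33.2 and 36.6 CPM, and 5 of them were higher than in all other barcodes (Cd209a, Clec10a, Clec9a, Flt3 and Itgax).

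Between flox/flox and each other library, interferon-stimulated genes were the list with the largest median difference among those with at least 10 measured genes. A gene was measured if it had at least 20 UMIs over the cells of the 3 libraries, which 3119 genes had. The flox/flox cells held 204727 of the 360954 UMIs, so a gene high in that library alone could pass. Ifi44, Usp18, Ifi47 and Slfn5 are among the genes that reached 20 UMIs only through flox/flox. Without Bst2, Irf7, Ifitm3, Ifi27l2a and Ifi203, the other 38 listed genes gave 62 UMIs in wt/wt and 92 in wt/flox. That is too few for all of the measured genes among them to reach 20 UMIs without flox/flox. The counts and medians for flox/flox below rest to a large extent on genes that passed through flox/flox. They describe the measured genes, not the list. Of 19 measured interferon-stimulated genes, from 45 listed, 12 were at least 1.5-fold higher in flox/flox than in wt/wt and 0 at least 1.5-fold lower. Over all measured genes 22.3% were that much higher and 15.7% that much lower. The median log2 ratio of the 19 was 0.88, against 0.07 over all measured genes. Over wt/flox, 15 of 19 were at least 1.5-fold higher in flox/flox and 0 lower, against 20.4% and 14.6% of all measured genes, with a median of 1.30 against 0.02. These comparisons share the flox/flox library. For wt/flox over wt/wt, 1 was higher and 5 were lower, against 20.3% and 16.3%, with a median of -0.57 against 0.02. A gene with 3 or fewer UMIs in both libraries takes -0.57 from the library totals alone, because counts under 3 were set to 3. The median equals this set value, so it shows no fall in wt/flox.

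The sum over the list was highest in flox/flox too, by a smaller step. It stood at 4010 CPM (3530 to 4530, exact Poisson interval) in wt/wt, 3580 (3210 to 3980) in wt/flox and 5940 (5610 to 6280) in flox/flox. The flox/flox interval did not meet the others, with a log2 ratio to wt/flox of 0.73 (0.55 to 0.91) and to wt/wt of 0.57 (0.37 to 0.77). Bst2 and Irf7, which plasmacytoid dendritic cells express as markers, made up much of this sum. Without them it was 2070, 1950 and 4030 CPM. Leaving out Ifitm3, Ifi27l2a and Ifi203 as well, a choice made after seeing the data, the remaining 38 genes summed to 985, 986 and 2410 CPM. The log2 ratio of flox/flox to wt/flox was then 1.29 (0.96 to 1.63) and that to wt/wt 1.29 (0.91 to 1.69), while wt/flox over wt/wt was 0.0 (-0.48 to 0.49).

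The same sum was also highest in flox/flox in every other class. All other barcodes stood at 1470, 2140 and 3660 CPM for the full list, with a log2 ratio of 1.32 for flox/flox over wt/wt and 0.54 for wt/flox over wt/wt. Kupffer-rule barcodes stood at 3230, 4600 and 7710 CPM, B-rule barcodes at 1700, 2210 and 4010, and conventional dendritic rule barcodes at 2570, 2680 and 4220. Since hepatocyte RNA was present in the cells, the level in all other barcodes times the hepatocyte marker ratio gives the level that the same ratio would give. That product is only a scale, since genes need not follow the ratio. Hbb-bs, at 4950 CPM in all other wt/flox barcodes, gave 0 UMIs in the cells. The source of the transcripts was not tested. For the 38 genes that product was 269, 426 and 777 CPM, below the 985, 986 and 2410 CPM found in each library's cells.

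**Figure D4:**
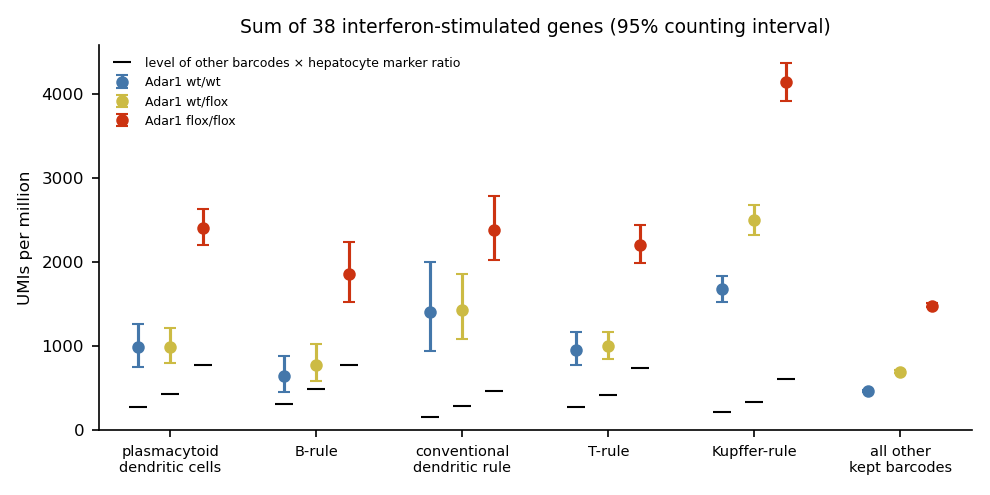
Summed level of 38 interferon-stimulated genes (y axis, CPM of the class sum) by class (x axis) and library, with exact 95% counting intervals; black dashes mark the level of all other barcodes times the ratio of hepatocyte markers. In plasmacytoid dendritic cells wt/wt and wt/flox lie at 985 and 986 and flox/flox at 2410, each above its dash.

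Counted per barcode, 67.3% of the wt/wt cells (52.5 to 80.1) and 70.1% of the wt/flox cells (58.6 to 80.0) held at least 1 UMI of the 38 genes. In flox/flox it was 88.2% (82.0 to 92.9). After thinning to 600 UMIs these shares were 40.8%, 44.2% and 69.3%, beside 21.6%, 29.1% and 52.8% in all other barcodes. Cells with 3 or more such UMIs numbered 4 of 49, 11 of 77 and 75 of 153.

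Single genes of the list differed in how far they went with the library. Ifitm3, a membrane protein that blocks virus entry, stood at 445, 579 and 879 CPM with a log2 ratio of flox/flox to wt/wt of 0.98 (0.40 to 1.61), beside 1.03 in all other barcodes, whose level times the hepatocyte ratio was 443, 647 and 807 CPM. Ifitm3 in the cells was close to that product, and its source was not tested. Trim30a stood at 175, 107 and 293 CPM, with a flox/flox ratio to wt/flox of 1.45 (0.47 to 2.58) and to wt/wt of 0.75 (-0.20 to 1.82).

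Several genes with low counts were found mainly in flox/flox. Isg15, a ubiquitin-like protein, gave 0, 2 and 16 UMIs, and Usp18, which removes ISG15 and dampens the receptor, gave 0, 3 and 19. Ifi47 gave 0, 2 and 19 UMIs, and Ifit1, a sensor of viral RNA ends, 0, 0 and 10. Slfn5 gave 1, 3 and 22 UMIs, a flox/flox level 3.34 times that of wt/flox (1.00 to 17.4). Ifi44 gave 1, 1 and 23 UMIs. These counts set wide intervals. Bst2 behaved otherwise, with a ratio of -0.10 (-0.41 to 0.22) in the cells beside 0.89 in all other barcodes. Ifi203 (-0.18, -1.06 to 0.77) and Lgals3bp (-0.38, -1.83 to 1.27) also showed no difference beyond counting error.

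**Figure D5:**
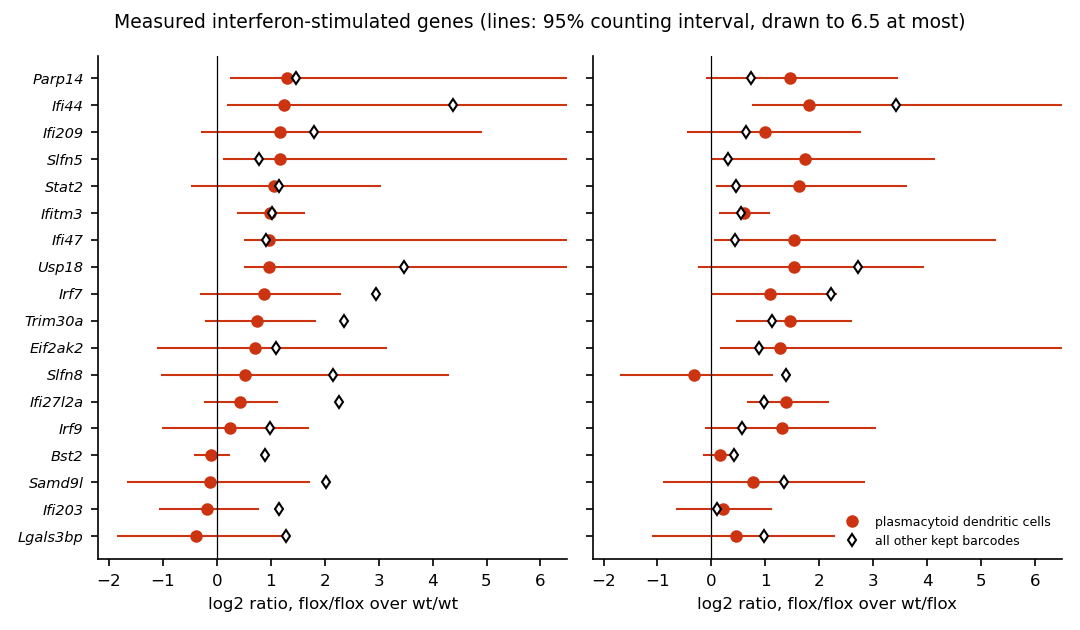
Log2 ratio (x axis) of flox/flox over wt/wt (left) and over wt/flox (right) for measured interferon-stimulated genes (y axis) in plasmacytoid dendritic cells, with 95% counting intervals, and in all other kept barcodes (diamonds); counts under 3 were set to 3 in the ratio. Over wt/wt, Ifitm3 lies at 0.98 and Bst2 at -0.10.

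Promoters of 4 of these genes are shown because the genes share a motif. The letters GAAA, then 2 bases of any kind, then GAAA, the core of the interferon-stimulated response element bound by factors of the interferon pathway, were searched on both strands and overlapping matches were counted. They occur in 18 of the 34 interferon-stimulated genes with a promoter in the RefSeq table (52.9%, from 45 listed) and in 1079 of all 27025 genes (3.99%). Each window runs from 250 bases before to 50 bases after the start site on GRCm38.p6, written 5' to 3' on the gene's strand, with matches in capitals. Bst2 is at chr8:71537423-71537722 on the minus strand with 2 overlapping matches, Isg15 at chr4:156200769-156201068 on the minus strand with 3, Trim30a at chr7:104465144-104465443 on the minus strand with 1, and Slfn5 at chr11:82951852-82952151 on the plus strand with 1.
Bst2: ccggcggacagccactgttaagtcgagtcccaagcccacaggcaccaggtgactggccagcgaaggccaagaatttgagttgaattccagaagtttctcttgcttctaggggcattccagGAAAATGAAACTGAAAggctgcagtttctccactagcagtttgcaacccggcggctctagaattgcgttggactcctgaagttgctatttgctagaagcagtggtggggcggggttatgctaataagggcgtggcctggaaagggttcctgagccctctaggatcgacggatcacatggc
Isg15: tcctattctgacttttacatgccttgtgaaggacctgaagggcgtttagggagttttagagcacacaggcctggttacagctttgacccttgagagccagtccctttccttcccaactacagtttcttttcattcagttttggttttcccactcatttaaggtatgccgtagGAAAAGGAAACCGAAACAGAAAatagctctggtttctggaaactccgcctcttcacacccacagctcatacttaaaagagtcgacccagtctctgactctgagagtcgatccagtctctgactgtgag
Trim30a: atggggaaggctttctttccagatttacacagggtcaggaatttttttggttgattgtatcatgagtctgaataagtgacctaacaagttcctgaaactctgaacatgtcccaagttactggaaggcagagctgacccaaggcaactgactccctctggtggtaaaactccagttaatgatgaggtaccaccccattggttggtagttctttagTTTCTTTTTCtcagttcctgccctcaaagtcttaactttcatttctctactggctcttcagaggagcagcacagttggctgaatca
Slfn5: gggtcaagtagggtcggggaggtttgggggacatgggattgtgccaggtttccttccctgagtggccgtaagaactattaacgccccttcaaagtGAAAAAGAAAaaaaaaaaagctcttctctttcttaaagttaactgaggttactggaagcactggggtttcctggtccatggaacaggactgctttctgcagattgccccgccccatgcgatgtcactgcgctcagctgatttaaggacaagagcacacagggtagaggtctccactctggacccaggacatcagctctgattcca
Bst2 and Trim30a hold the motif, like Isg15 and Slfn5, yet neither differed in the cells between flox/flox and wt/wt beyond counting error. A match describes letters in this window and says nothing on which factor binds.

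Other gene groups differed between the libraries to varying extents. Of 31 measured markers, 13 were at least 1.5-fold higher in flox/flox than in wt/wt and 1 at least 1.5-fold lower. The summed list gave a log2 ratio of 0.35 (0.22 to 0.48). Over all measured genes 22.3% were that much higher and 15.7% that much lower. Over wt/flox, 5 of the 31 markers were higher and 0 lower, against 20.4% and 14.6% of all measured genes. Their sum there was 0.21 (0.11 to 0.32). Of 11 measured homing genes 8 were higher in flox/flox than in wt/wt and 0 lower, with a sum at 0.65 (0.41 to 0.90). Over wt/flox 2 were higher and 1 lower, with a sum at 0.23 (0.04 to 0.41). For wt/flox over wt/wt the homing sum was 0.42 (0.15 to 0.7). Ly6c2, a member of both lists, stood at 1.15 for flox/flox over wt/wt. The 9 monocyte markers, among them Ly6c2 and Ccr2, summed to 1.39 (0.92 to 1.89) for flox/flox over wt/wt. They summed to 0.38 (0.08 to 0.69) over wt/flox, and wt/flox over wt/wt gave 1.0 (0.48 to 1.55). Class I presentation genes summed to 0.39 (0.21 to 0.58). Class II genes summed to 0.13 (-0.07 to 0.33) over wt/wt, an interval that includes no difference. The hepatocyte markers in the cells summed to -0.37 (-0.43 to -0.31) over wt/wt, and their part in the ratios of the other lists was not tested.

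Genes picked for the largest difference of flox/flox from both other libraries are given as a description, since their values chose them. Among the highest were Ifi27, Mup21, Rsbn1l, Fkbp5, Ugt2b36, Ubn2 and Zcchc7. Ifi27, a mitochondrial protein induced by interferon, stood at 31.8, 42.9 and 200 CPM, and all other barcodes times the hepatocyte ratio gave 32.8, 65.3 and 207 CPM. Fkbp5, a glucocorticoid-induced chaperone, stood at 111, 21.4 and 317 CPM, beside 81.8, 20.2 and 183 CPM in all other barcodes, so it was lowest in wt/flox in both. Rsbn1l stood at 31.8, 42.9 and 147 CPM while all other barcodes stayed between 26.3 and 32.1 CPM. Zcchc7, part of a nuclear RNA decay complex, stood at 79.5, 85.7 and 220 CPM. Mup21 and Ugt2b36 are liver genes.

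The lowest were Alas2, Acaa1b, Glyctk, Mup1, Tmem147, Ndufv1, Mbl1 and Oat. Acaa1b, a peroxisomal enzyme of fat oxidation, stood at 938, 750 and 181 CPM in the cells, beside 1230, 832 and 357 CPM in all other barcodes. Oat, a mitochondrial aminotransferase, stood at 381, 311 and 97.7 CPM beside 467, 339 and 298. All other barcodes showed the same order of libraries for both. Ndufv1, a subunit of respiratory complex I, stood at 159, 85.7 and 24.4 CPM in the cells, with a log2 ratio of -2.70 (-4.60 to -1.02) beside -0.47 in all other barcodes, and rested on 10, 8 and 5 UMIs.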

How the data were processed

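The authors deposited whole UMI counts for each barcode, from Cell Ranger 6.1.1 per the file headers. Seurat and mm10 appear in the submitters' processing notes. Each library held 10000 barcodes, and depth set the intervals, which cover counting error only. UMIs were summed per class and library with scipy 1.17.1 and numpy 2.4.6 under Python 3.11.15. Class sums were tested in R 4.3.3 with edgeR 4.0.16 (quasi-likelihood, TMM scaling, filterByExpr with a minimum count of 5 and total of 15, library as block, Benjamini-Hochberg), and DESeq2 1.42.0 was an alternative. SEs are the log2 fold change over the root of F. The fit was tested on simulated data. Genotype ratios set counts under 3 to 3. Named genes were list members, the 12 highest and 8 lowest called genes per class comparison moving alike in each library, and up to 8 genes each way between genotypes. The members and lists were chosen with earlier results of these data known. Library numbers in the barcode suffix were matched to the labels' sample numbers. Both sums of a library come from 1 suspension, which is the pairing behind the block. Mx1 and Mx2 were not analysed here. Some listed genes are counted in their lists but not reported by name here.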

Additional observations from a re-analysis of the deposited data

How the results depend on the processing

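Counts of genes called depended on the test more than on scaling. DESeq2 called 1424 genes against all other barcodes, 64 against B-rule, 139 against conventional dendritic rule and 512 against Kupffer-rule barcodes, where edgeR called 2439, 218, 382 and 1631. The cause was not tested. Without the replicate block, that is, without pairing the sums of a library, edgeR called 217 genes against conventional dendritic rule barcodes. It called 1760, 155 and 1206 against all other, B-rule and Kupffer-rule barcodes. Leaving out 1 library at a time gave 1112 to 1967, 158 to 204, 192 to 341 and 1007 to 1465 calls. The lowest count was without the flox/flox library against all other, conventional dendritic rule and Kupffer-rule barcodes, where fewer cells remain. Of the genes named for these comparisons, Cd300c and Eldr (B-rule), Top2a (conventional dendritic rule) and Tmem26 (Kupffer-rule) missed the threshold under DESeq2. None turned its direction in an alternative run that gave it an adjusted p. Some named genes had no adjusted p in some runs and were left out of this check there. The shares of plasmacytoid dendritic cells were 0.304% in wt/wt and 1.16% in flox/flox after thinning to 600 UMIs, and 1.43%, 1.83% and 3.47% of barcodes with at least 1000 UMIs. With genes measured at 10 UMIs, 13.1% of them were at least 1.5-fold higher in flox/flox than in wt/wt. Without Bst2 and Irf7 the summed interferon-stimulated genes gave a log2 ratio of flox/flox to wt/flox of 1.05 and to wt/wt of 0.96, and the 38-gene sum gave 1.29 and 1.29; both sums were chosen after seeing the data. Genotype has 1 library each, so no value separates it from the library.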
